A study of Homo sapiens with 8 samples.

Results

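The ATP-binding cassette (ABC) transporter genes were read in 8 RNA-seq libraries of SH-SY5Y, a human neuroblastoma cell line. The family was chosen by gene symbol alone, as every entry whose symbol is ABC, a subfamily letter from A to G and a number. This rule took 45 of the 47591 entries in the table of genes, or 46 symbols, since ABCA10 and ABCA5 share 1 entry. No measured value entered the rule, but the family was picked for description with earlier results of these data known, so its counts describe these lines.

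The lines were G2 (3 libraries), made with a CRISPR/Cas9 guide against PRPF40B, SCR (3 libraries), made with a scrambled guide, and WT (2 libraries), which was not edited. PRPF40B encodes a splicing factor of the U1 snRNP neighbourhood, and the comparison of the lines addressed what its loss does to transcripts. The G2 line came from colonies picked by limiting dilution after puromycin selection, and whether SCR did is not given in the sources used here. G2 and SCR were kept in puromycin, which is not stated for WT. Line, editing and puromycin therefore cannot be told apart in comparisons with WT, and G2 is a single line, so guide effect and colony cannot be told apart in G2/SCR either. Replicates are named as biological replicates of one line each, and p-values measure the spread between such samples.

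ABC proteins bind and split ATP at a pair of cytoplasmic domains. Most use that energy to move a substrate across a membrane. Subfamily A and G members mainly move lipids and sterols, subfamily B and C members move drugs, peptides, bile salts and conjugates or regulate channels, and most subfamily D members bring fatty acyl groups into peroxisomes. ABCE1 and the F members have no membrane part and act on ribosomes. In neuroblastoma the family is best known for the drug pumps ABCB1 and ABCC1, and puromycin is itself a substrate of the ABCB1 pump.

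Recovered totals ran from 59804395 to 81080747 counts per library, and 3 counts stood for about 1 read pair. Values are normalized counts, that is counts divided by a size factor for each library. PRPF40B read 840, 841 and 918 in G2, 1686, 1672 and 1669 in SCR and 1972 and 1668 in WT. All 3 G2 libraries thus sat below the 5 others (log2 fold change -0.95 ± 0.08 (SE) in G2/SCR, limma adjusted p = 7.4e-07). The WT libraries stood apart in ribosomal RNA, which took 4.75% and 4.96% of their counts against 0.38% to 0.59% elsewhere. In G2/WT and SCR/WT this difference between libraries cannot be told apart from line either. In bulk RNA such as this, fewer cells that express a gene and less RNA per cell cannot be told apart.

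Of the 45 entries, 32 reached a mean of 10 normalized counts over the 8 libraries and were tested. Per kilobase of annotated exon, the highest mean over the 8 libraries was that of ABCB1, the P-glycoprotein drug pump (2265 normalized counts per kb). ABCF1, a partner of translation initiation factor eIF2, followed with 1764 and ABCF2, another cytosolic member, with 1339, though 37.1% of the exon bases of ABCF2 are shared with a readthrough gene on the same strand. ABCB1 alone held 17.8% of the summed level per kb of the family in G2, 26.4% in SCR and 18.5% in WT. It ranked above ABCF1 in G2 and SCR and below it in WT.

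**Figure D1:**
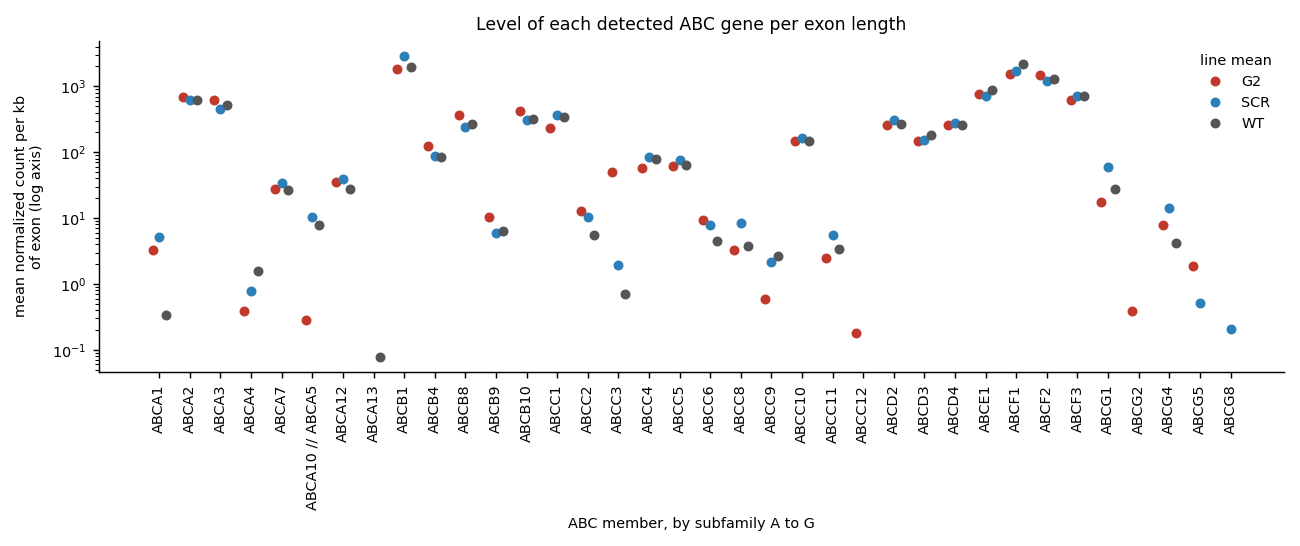
Mean normalized count per kilobase of exon (log axis) for ABC members detected in any library, ordered by subfamily, with 1 point per line. Points at 0 are not drawn. ABCB1 and ABCF1 lie highest, and ABCC3, ABCA1 and ABCA10 // ABCA5 show the widest gaps between lines.

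The other 13 entries were not tested. ABCA6, ABCA8, ABCA9, ABCB5, ABCB6, ABCB11 and ABCC13 were listed at 0 in all 8 libraries, where 3 read pairs would give between 6.8 and 11.2 normalized counts. ABCA4, ABCA13, ABCC12, ABCG2, ABCG5 and ABCG8 were read at low level in some libraries. Among these 6 the highest single value was 21.8, for the retinal transporter ABCA4 in WT replicate 2. ABCG2, the breast cancer resistance pump, read 6.45 in 1 G2 library and 0 in the other 7. Of the exon bases of ABCB6, 54.6% are shared with another gene on the same strand, so only the listing at 0 can be stated. ATG9A, a widely used autophagy gene noticed after its values were seen, is listed at 0 too.

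A gene was called when its fold change was at least 1.5 and its Benjamini-Hochberg adjusted p, over all 18947 tested genes, was at most 0.05 in limma. In G2/SCR, 3 members were called higher, against 14.3% of all tested genes, and 8 were called lower, against 10.7%. The 3 make up 9.38% and the 8 make up 25.0% of the 32 tested members. The higher members were ABCB8, ABCB9 and ABCC3. The lower ones were the ABCA10 // ABCA5 entry, ABCB1, ABCC1, ABCC8, ABCC9, ABCC11, ABCG1 and ABCG4.

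In G2/WT, 7 members were called higher, against 16.9% of all genes, and 4 lower, against 11.3%. The higher members were ABCA1, ABCB4, ABCB9, ABCC2, ABCC3, ABCC6 and ABCG4, and the lower ones were the ABCA10 // ABCA5 entry, ABCC1, ABCC9 and ABCG1. In SCR/WT, 6 members were called higher, against 8.95% of all genes, and 0 lower, against 4.83%. The 6 were ABCA1, ABCC2, ABCC3, ABCC8, ABCG1 and ABCG4. At an unadjusted limma p under 0.05, 3 members were lower in SCR/WT at any fold and 0 at a fold of 1.5, and no other tool was run on that comparison. The 3 comparisons share libraries, so their lists are not independent.

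At any fold, 19 of the 32 members reached an adjusted p of at most 0.05 in G2/SCR (49.1% of all genes did), 23 in G2/WT (52.6%) and 11 in SCR/WT (35.4%). Scaling each library to the same total moved the median of all genes to -0.10, 0.19 and 0.28 in the 3 comparisons on the log2 scale. The members called higher and lower then numbered 2 and 9 (G2/SCR), 10 and 2 (G2/WT), and 10 and 0 (SCR/WT). The share of higher calls among all calls moved from 57.3% to 48.3%, from 59.8% to 76.4% and from 64.9% to 91.3%.

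**Figure D2:**
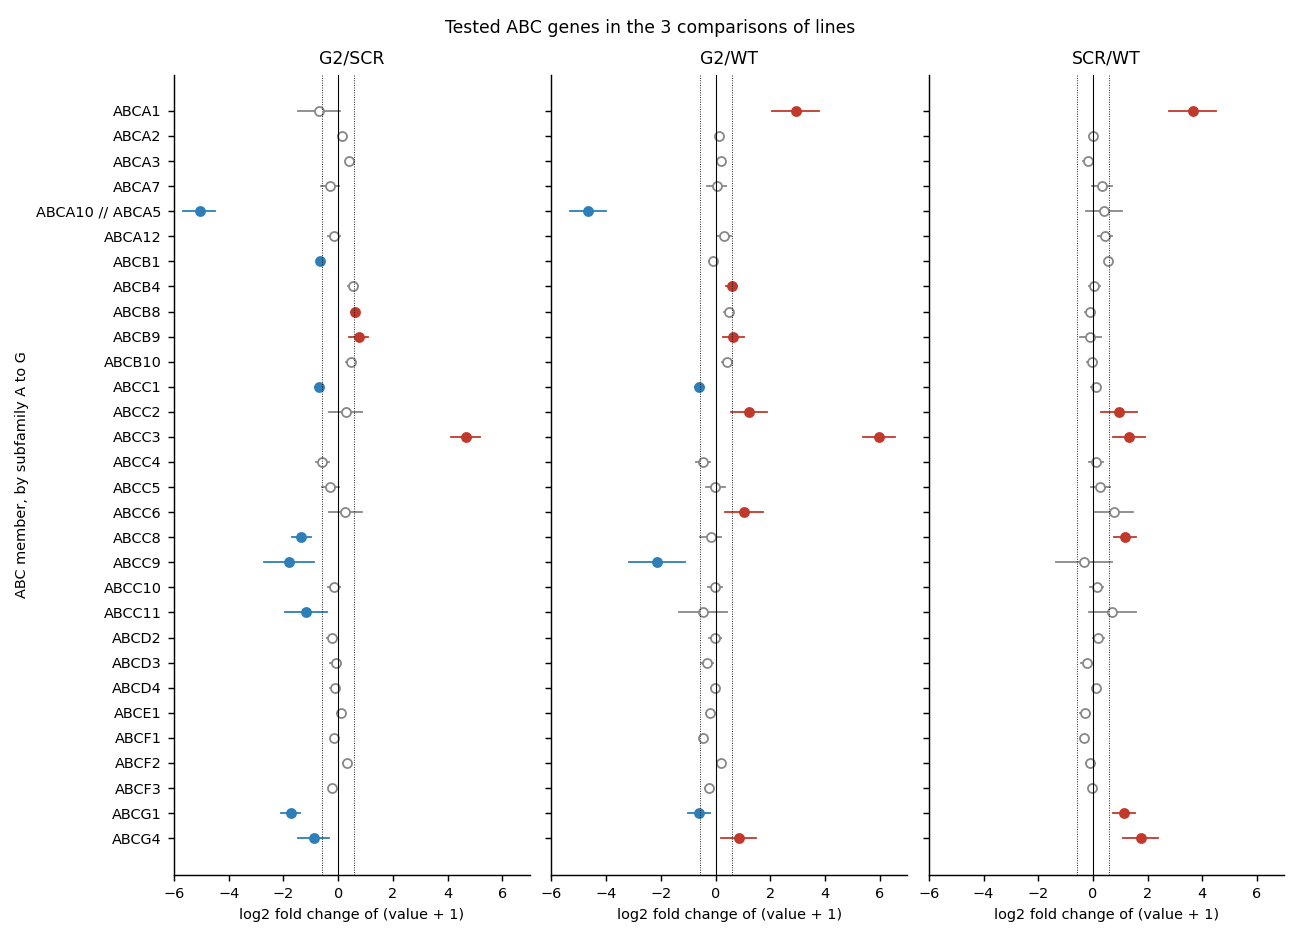
Log2 fold change of 30 of the 32 tested ABC members in each comparison, on the scale of log2(normalized count + 1). Points are limma estimates with 95% confidence intervals, red where called higher, blue where called lower and open where not called, and dotted lines mark a fold of 1.5. ABCC3 and the ABCA10 // ABCA5 entry lie farthest from 0 in both G2 comparisons.

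By subfamily, the median log2 fold change in G2/SCR was -0.22 over 6 A members, 0.50 over 6 B members, -0.43 over 10 C members, -0.11 over 4 D members, -0.15 over 3 F members and -1.32 over 2 G members. Over all tested genes it was -0.01 and over the 32 members -0.14. For G2/WT they came to 0.18 (A), 0.46 (B), -0.09 (C), -0.02 (D), -0.23 (F) and 0.12 (G), beside 0.00 for all genes and 0.01 for the members. In SCR/WT the medians were 0.37 for A, 0.01 for B, 0.49 for C, 0.11 for D, -0.11 for F and 1.44 for G, beside 0.01 for all genes. Subfamily B thus had 5 of 6 members above 0 in G2/SCR. Subfamily C had 7 of 10 below 0, and both tested G members lay below 0.

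Among the lipid transporters of subfamily A, the ABCA10 // ABCA5 entry was near absent in G2. It lies at chr17:69148007-69327182 on the minus strand of hg38. ABCA5 is a lysosomal and endosomal lipid transporter, and ABCA10 is a less studied neighbour. The entry read 3.76, 5.47 and 8.60 in G2, 202, 229 and 241 in SCR and 158 and 178 in WT. The G2 libraries were all at the floor of 3 read pairs, and no G2 value came near a control value. With that floor in place of the G2 values, SCR held at least 24.0-fold more of the entry than G2 (log2 fold change -5.07 ± 0.27 (SE), limma adjusted p = 1.7e-08). WT held at least 18.0-fold more (-4.66 ± 0.30, limma adjusted p = 1.1e-07). SCR and WT differed by 0.41 on the log2 scale, with a 95% interval from -0.24 to 1.07 (limma adjusted p = 0.31). This fall was among the results known before the family was picked. The table does not say how much of the entry belongs to each gene.

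Because the entry joins genes with separate starts, the RefSeq promoters of both are shown, from 250 bases before to 50 after each start (GRCh38.p14, minus strand, 5′ to 3′). Capitals mark matches on either strand to the GC box GGGCGG, the CCAAT box, the TATA box TATAAA, the E-box CACGTG, the AP-1 site TGANTCA and the cAMP response element TGACGTCA. Overlapping matches were kept. ABCA5 starts in a window with 45 CG pairs (chr17:69327084-69327383), above the median of 14 over 35116 promoters. The ABCA10 windows hold 3 (chr17:69244799-69245098) and 1 (chr17:69228775-69229074).
ABCA5: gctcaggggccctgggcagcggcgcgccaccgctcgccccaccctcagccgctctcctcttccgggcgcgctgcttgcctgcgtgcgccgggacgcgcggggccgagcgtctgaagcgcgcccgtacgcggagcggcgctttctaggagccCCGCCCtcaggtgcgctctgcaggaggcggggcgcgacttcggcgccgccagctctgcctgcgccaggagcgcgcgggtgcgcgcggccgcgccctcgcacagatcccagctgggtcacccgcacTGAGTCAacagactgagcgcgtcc
ABCA10 upstream start: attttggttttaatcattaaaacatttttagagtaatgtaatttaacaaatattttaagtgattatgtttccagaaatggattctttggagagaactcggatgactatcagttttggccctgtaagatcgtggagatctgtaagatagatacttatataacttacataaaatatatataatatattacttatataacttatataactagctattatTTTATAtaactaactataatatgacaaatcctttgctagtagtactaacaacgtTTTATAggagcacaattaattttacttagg
ABCA10 downstream start: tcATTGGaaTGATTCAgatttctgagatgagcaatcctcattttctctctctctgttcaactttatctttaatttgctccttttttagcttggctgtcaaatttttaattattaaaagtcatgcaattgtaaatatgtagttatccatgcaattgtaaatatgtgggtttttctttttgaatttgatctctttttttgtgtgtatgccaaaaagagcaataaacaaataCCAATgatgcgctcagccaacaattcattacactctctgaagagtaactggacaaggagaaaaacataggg
The ABCA5 window has 1 GC box and 1 AP-1 match. The downstream ABCA10 window has 1 AP-1 match and 2 CCAAT matches, and the upstream one has 2 TATA matches and no GC box. GC boxes occurred in 45.0% of all 35116 promoters, CCAAT in 34.6%, TATA in 11.5% and AP-1 in 7.71%. A match describes the letters in the window, not a site in use.

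The genes beside the entry differed among themselves. Over the 10 tested genes on each side, members left out, the median log2 fold change in G2/SCR was 0.17, with 4 called higher and 2 lower. Their values ran from -2.70 to 4.04, and the lowest was that of ARSG, a sulfatase gene named after its values were seen, whose G2/WT value was -0.67. The other ABC genes of this cluster, ABCA6, ABCA9 and ABCA8, follow on the same strand with gaps of 6.01, 17.7 and 19.1 kb and were listed at 0 in every library.

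ABCA1, which loads cholesterol and phospholipid onto apolipoproteins, was weakly expressed and lowest in WT. It read 25.4, 54.7 and 33.3 in G2, 62.3, 57.2 and 58.9 in SCR and 3.72 and 3.97 in WT. Both WT libraries were at the floor, and the lowest G2 value was above them. The gene (chr9:104764558-104928237) was at least 3.76-fold higher in G2 than that floor (log2 fold change 2.93 ± 0.39, limma adjusted p = 6.0e-05). It was at least 5.92-fold higher in SCR (3.64 ± 0.39, limma adjusted p = 3.4e-05). G2 and SCR did not overlap, but their difference of -0.71, with a 95% interval from -1.48 to 0.06, missed the threshold (limma adjusted p = 0.12).
The ABCA1 promoter is shown because its sequence holds several of the searched motifs, 3 GC boxes, 1 E-box and 1 TATA match (GRCh38.p14, chr9:104928106-104928405, minus strand, capitals as above). E-boxes were found in 7.26% of all promoters.
ABCA1: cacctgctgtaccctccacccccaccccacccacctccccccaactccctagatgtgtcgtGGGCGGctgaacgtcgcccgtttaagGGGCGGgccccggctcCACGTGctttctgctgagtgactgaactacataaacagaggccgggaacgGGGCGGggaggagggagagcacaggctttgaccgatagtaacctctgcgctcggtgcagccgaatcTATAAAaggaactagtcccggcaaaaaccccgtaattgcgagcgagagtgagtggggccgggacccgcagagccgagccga

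The remaining A members were steadier. ABCA2 and ABCA3, both highly expressed lipid transporters of lysosome-related organelles, averaged 7864 ± 489 (SD, n = 3) and 4767 ± 190 in G2. ABCA3 was 0.41 higher in G2/SCR on the log2 scale (limma adjusted p = 1.5e-04) and so fell short of the fold threshold. ABCA7 and ABCA12 had G2/SCR differences of -0.30 and -0.14, with 95% intervals from -0.61 to 0.02 and from -0.36 to 0.08.

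Both tested G members were highest in SCR. ABCG1, which passes cholesterol to high-density lipoprotein, read 117, 95.3 and 115 in G2, 410, 304 and 387 in SCR and 142 and 194 in WT. Every G2 library was below every control, and every SCR library was above both WT libraries. The gene (chr21:42199689-42297244) fell by 1.74 in G2/SCR (SE 0.17, limma adjusted p = 3.2e-06), and it was lower in G2/WT as well (-0.60 ± 0.19, limma adjusted p = 0.016) and higher in SCR/WT (1.13 ± 0.19, limma adjusted p = 6.4e-04). The G2/WT call was lost when libraries were scaled to the same total (log2 fold change -0.42) or when WT replicate 2 (-0.38) or G2 replicate 2 (-0.51) was left out.

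ABCG4, a sterol transporter of brain and neural cells, read 50.8, 59.1 and 35.5 in G2, 91.9, 80.7 and 96.7 in SCR and 31.0 and 21.8 in WT. The 3 lines did not overlap and stood in the order SCR, G2, WT. The log2 differences were -0.90 ± 0.26 for G2/SCR (limma adjusted p = 0.012), 0.84 ± 0.29 in G2/WT (limma adjusted p = 0.028) and 1.74 ± 0.29 in SCR/WT (limma adjusted p = 7.1e-04). Without SCR replicate 3 the G2/SCR value was -0.85 and the call was lost. The G2/WT call was lost without G2 replicate 1, G2 replicate 2 or WT replicate 2 (0.79, 0.68 and 0.60), with no filter on low values, and when only these lines were fitted.

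Of 14 measured partners in sterol and phospholipid handling (receptors, regulators and carriers around ABCA1 and ABCG1), 6 were called higher and 0 lower in G2/SCR by limma. Among all tested genes 14.3% were called higher and 10.7% lower there. In G2/WT 5 were higher and 3 lower, and in SCR/WT 0 were higher and 2 lower. The smallest p values of the list in G2/SCR belonged to NPC2, APOE and PLTP. NPC2, the soluble cholesterol carrier of lysosomes, rose by 1.49 on the log2 scale (limma adjusted p = 3.7e-09). APOE, an apolipoprotein that accepts cholesterol, averaged 688 in G2 against 69.5 in SCR and 67.4 in WT (log2 fold change 3.31 in G2/SCR, limma adjusted p = 2.5e-08). PLTP, which transfers phospholipid between lipoproteins, rose by 1.06 (limma adjusted p = 1.1e-07). ABCG1 and ABCG4 fell in the same comparison in which these 3 partners rose. In G2/WT NPC2, APOE and PLTP were higher too (log2 fold changes 1.65, 3.34 and 1.25), while ABCG1 was lower and ABCG4 higher. A link between the partners and these members was not tested.

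**Figure D3:**
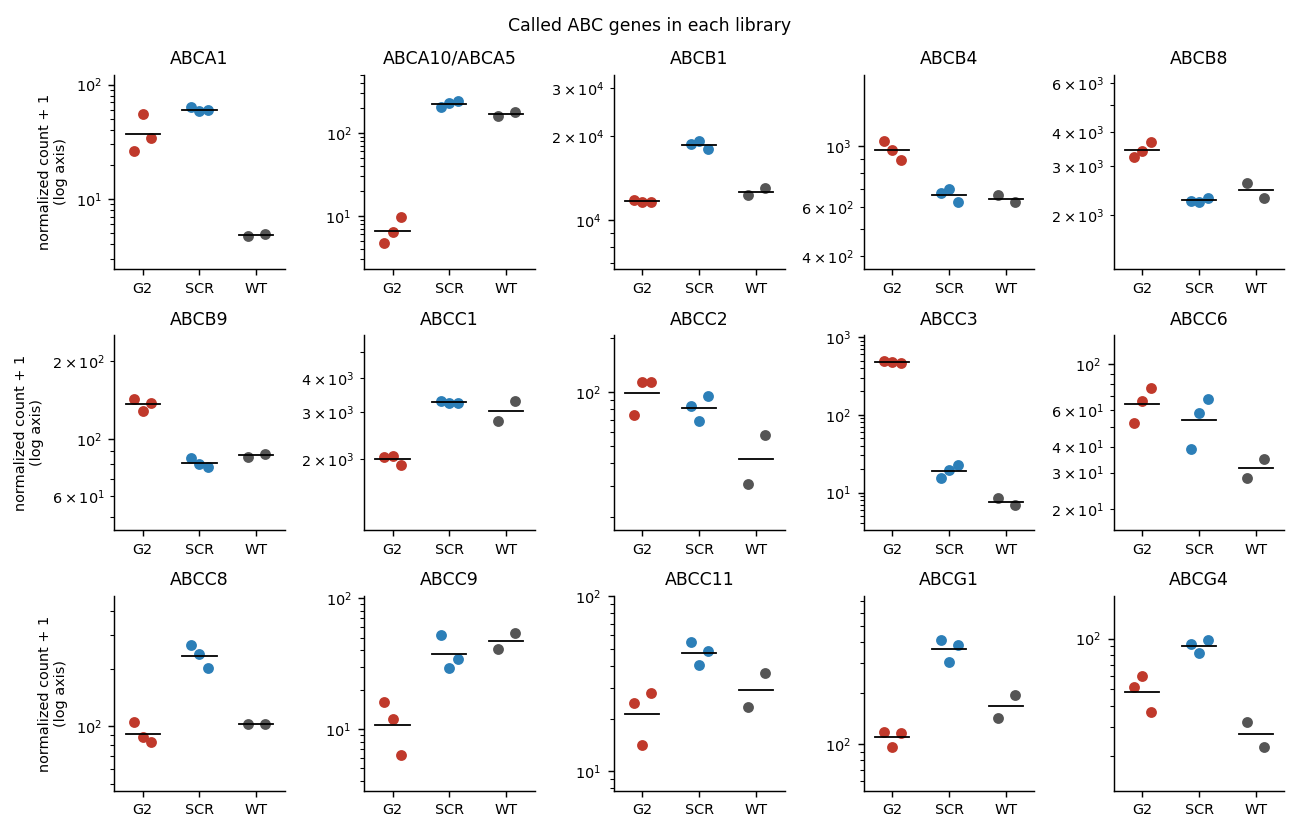
Normalized count + 1 (log axis, different for each gene) of the 15 called ABC members, 1 point per library, with G2 in red, SCR in blue and WT in grey. Lines are means on the log scale. G2 lies below the other lines for ABCA10/ABCA5, ABCC1, ABCC9 and ABCG1 and far above them for ABCC3.

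Of the drug and conjugate pumps, ABCB1 had the highest counts. It lies at chr7:87503017-87713413 and read 11813, 11585 and 11642 in G2, 18856, 19200 and 17976 in SCR and 12260 and 13029 in WT. SCR stood above the other lines, and G2 was just below WT. The fall in G2/SCR was 0.68 on the log2 scale (fold 1.60, SE 0.05, limma adjusted p = 2.9e-07). G2/WT gave -0.11, with a 95% interval from -0.23 to 0.01. In SCR/WT the difference of 0.56 had a limma adjusted p of 1.7e-05 but a fold of 1.48, under the threshold. The part of puromycin in these levels was not tested.

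RefSeq lists 2 starts for ABCB1, and both promoters are shown because the table gives only their sum (GRCh38.p14, minus strand, capitals as above). The downstream window (chr7:87600835-87601134) holds 16 CG pairs, 2 CCAAT matches and 1 AP-1 match that overlaps a CCAAT match. The upstream window (chr7:87713246-87713545) holds 1 CG pair and none of the searched motifs.
ABCB1 downstream start: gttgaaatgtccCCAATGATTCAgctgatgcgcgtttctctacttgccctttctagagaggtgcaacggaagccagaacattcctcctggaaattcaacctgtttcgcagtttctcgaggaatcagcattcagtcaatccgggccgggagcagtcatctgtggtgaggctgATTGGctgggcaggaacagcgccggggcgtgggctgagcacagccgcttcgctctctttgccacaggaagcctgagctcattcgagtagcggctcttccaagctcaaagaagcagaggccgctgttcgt
ABCB1 upstream start: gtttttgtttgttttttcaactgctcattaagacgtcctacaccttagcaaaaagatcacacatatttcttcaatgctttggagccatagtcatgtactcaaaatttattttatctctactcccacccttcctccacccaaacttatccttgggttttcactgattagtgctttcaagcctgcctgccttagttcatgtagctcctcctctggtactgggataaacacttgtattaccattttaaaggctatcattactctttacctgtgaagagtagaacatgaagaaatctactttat

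ABCB4, the phosphatidylcholine transporter next to ABCB1, moved the other way. The pair lie 22.6 kb apart on the same strand. ABCB4 read 1043, 972 and 891 in G2, 676, 701 and 625 in SCR and 666 and 624 in WT. All G2 libraries were above all controls. The G2/WT difference of 0.59 (limma adjusted p = 2.9e-04) was just inside the fold threshold, and the G2/SCR difference of 0.54 (limma adjusted p = 2.6e-04) was just outside it. The G2/WT call was lost without G2 replicate 1 (0.53), G2 replicate 2 (0.58) or WT replicate 2 (0.54).

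ABCC3, an organic anion and conjugate pump of the basolateral membrane, showed the largest rise among the members in both G2 comparisons. The gene (chr17:50634857-50692253, plus strand) read 500, 477 and 464 in G2, 14.3, 18.8 and 21.9 in SCR and 7.45 and 5.96 in WT. G2 lay far above the other lines, and SCR lay above WT, which was at the floor. The mean in G2 was 26.2-fold that in SCR (log2 fold change 4.66 ± 0.24, limma adjusted p = 1.2e-08) and at least 47.8-fold the WT floor (5.97 ± 0.27, limma adjusted p = 4.2e-09). SCR was at least 1.82-fold above the WT floor (1.31 ± 0.27, limma adjusted p = 0.0026), a call lost when only these lines were fitted. Its 20 neighbouring tested genes had a median of -0.16 in G2/SCR, with 4 called higher and 4 lower.

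ABCC1, the first multidrug resistance-associated protein, was the opposite case. It read 2036, 2064 and 1915 in G2, 3300, 3245 and 3242 in SCR and 2765 and 3290 in WT. All G2 values were below all controls. On the log2 scale it fell by 0.70 in G2/SCR (SE 0.07, limma adjusted p = 4.9e-06) and by 0.59 in G2/WT (SE 0.08, limma adjusted p = 5.6e-05). The G2/WT value sat at the fold threshold, and that call was lost without G2 replicate 3 (-0.56) or WT replicate 2 (-0.46) and with the same total per library (-0.40). ABCC4, a pump of cyclic nucleotides and nucleotide analogues, was just outside the threshold in G2/SCR (-0.58 ± 0.11, limma adjusted p = 6.4e-04), again with all G2 libraries below all controls.

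ABCC2, the apical conjugate pump of liver and kidney, was lowest in WT. It read 73.4, 113 and 112 in G2, 82.7, 67.6 and 94.5 in SCR and 29.8 and 56.6 in WT. The rise was 1.23 ± 0.30 in G2/WT (limma adjusted p = 0.0049) and 0.96 ± 0.30 in SCR/WT (limma adjusted p = 0.029), while G2/SCR gave 0.27 with an interval from -0.33 to 0.86. Without WT replicate 1 the differences were 0.77 and 0.51 and neither was called, and the SCR/WT call was also lost without SCR replicate 1 (0.94) or SCR replicate 3 (0.85). ABCC5 and ABCC10 were called in no comparison and had G2/SCR values of -0.28 and -0.14.

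ABCC6 and ABCC11 were weakly expressed. ABCC6, which controls release of ATP and is mutated in pseudoxanthoma elasticum, read from 50.8 to 76.3 in G2, from 37.8 to 67.3 in SCR and at 27.3 and 33.8 in WT, so G2 and SCR overlapped and both stood above WT. It was called higher in G2/WT (1.04 ± 0.31, limma adjusted p = 0.014), but not without G2 replicate 3 (0.91) or WT replicate 1 (0.89). ABCC6 has the near-identical pseudogenes ABCC6P1 and ABCC6P2, which the table counts apart, so its reads may be split among them and its value is uncertain. ABCC11, the transporter linked to earwax type, read 23.5, 13.1 and 26.9 in G2, 54.1, 39.4 and 47.6 in SCR and 22.3 and 35.7 in WT. It fell by 1.16 in G2/SCR (SE 0.35, limma adjusted p = 0.016), and this call was lost without G2 replicate 2 (-0.87), SCR replicate 1 (-1.06) or SCR replicate 3 (-1.15). Its exons overlap those of LONP2 on the other strand by 3.41%, and LONP2 itself differed by 0.10 on the log2 scale between G2 and SCR.

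In the list of 15 measured regulators and solute carriers of xenobiotic handling, 11 were tested. Of these, 4 were called higher and 1 lower in G2/SCR, against 14.3% and 10.7% of all tested genes. The list's median log2 fold change there was -0.08. NFE2L2, the oxidative stress factor NRF2 that is known to act on ABCC genes, rose by 0.80 (limma adjusted p = 1.3e-06). The part of NFE2L2 in the levels of the members was not tested. HIF1A, the hypoxia factor, rose by 0.59 (limma adjusted p = 1.5e-06), just past the fold threshold. SLCO4A1, an organic anion uptake carrier, fell by 0.88 (limma adjusted p = 4.7e-06). In G2/WT 2 of the list were higher and 3 lower, and in SCR/WT 1 was higher and 1 lower.

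ABCC8 and ABCC9 encode the sulfonylurea receptors SUR1 and SUR2, which move no known substrate and instead gate ATP-sensitive potassium channels. Their pore partners KCNJ11 and KCNJ8 are the neighbouring genes. ABCC8 read 104, 86.5 and 81.7 in G2, 264, 236 and 200 in SCR and 102 and 102 in WT. SCR stood above the other lines, and G2/WT gave -0.18 with a 95% interval from -0.57 to 0.21. The log2 differences were -1.35 ± 0.16 for G2/SCR (limma adjusted p = 2.1e-05) and 1.17 ± 0.18 in SCR/WT (limma adjusted p = 4.0e-04). KCNJ11, named here after its values were seen, averaged 114 in G2, 167 in SCR and 77.7 in WT and was called higher in SCR/WT alone (1.10 ± 0.23, limma adjusted p = 0.0034).

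ABCC9 followed another pattern and was lowest in G2. It read 15.1, 10.9 and 5.37 in G2, 51.0, 28.2 and 33.3 in SCR and 39.7 and 53.6 in WT. All G2 libraries were below all controls. It fell by 1.80 against SCR (SE 0.42, limma adjusted p = 0.0037) and by 2.14 against WT (SE 0.47, limma adjusted p = 0.0023), while SCR/WT gave -0.34 with an interval from -1.37 to 0.69. The G2 values of ABCC9 were near the floor of 9 recovered counts, at 16 at most, so the size of these falls is uncertain. KCNJ8, its pore partner, averaged 1289 in G2, 3260 in SCR and 3810 in WT. KCNJ8 fell by 1.35 against SCR (limma adjusted p = 5.7e-07) and by 1.57 against WT (limma adjusted p = 4.5e-07). Over the 20 genes around ABCC9, KCNJ8 included, the G2/SCR median was 0.10, with 3 called higher and 1 lower.

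**Figure D4:**
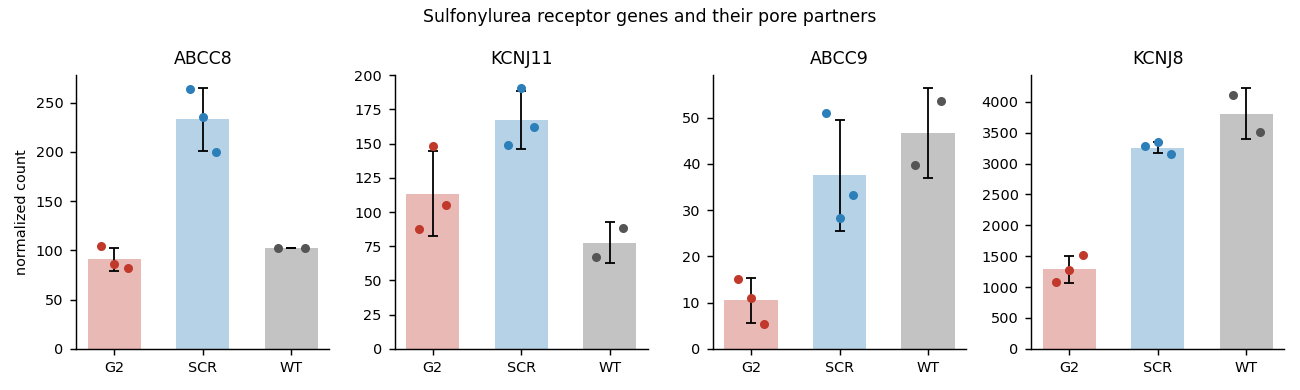
Normalized count of the sulfonylurea receptor genes ABCC8 and ABCC9 and of their pore partners KCNJ11 and KCNJ8, with 1 point per library, bars at the line mean and error bars of 1 SD. ABCC8 and KCNJ11 are highest in SCR, and ABCC9 and KCNJ8 are lowest in G2.

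The mitochondrial members ABCB8 and ABCB10 serve potassium and iron balance and heme supply. Of this pair ABCB8 was called and ABCB10 was not. ABCB8 (chr7:151028443-151047782) read 3254, 3409 and 3687 in G2, 2256, 2231 and 2306 in SCR and 2607 and 2313 in WT, with all G2 libraries above all controls. It rose by 0.61 in G2/SCR (SE 0.07, limma adjusted p = 1.3e-05), a call lost without G2 replicate 3 (0.56) and with the same total per library (0.51). The 20 tested genes around ABCB8 had a median of 0.59 in G2/SCR, with 9 called higher and 0 lower, and 0.43 in G2/WT, with 9 and 0. Of all tested genes, 14.3% were called higher and 10.7% lower in G2/SCR, and 16.9% and 11.3% in G2/WT. ABCF2, 164 kb away, sat among genes with medians of 0.34 and 0.51 and was itself 0.31 higher in G2/SCR (limma adjusted p = 3.6e-04, fold 1.24). The windows of genes around ABCB8 and ABCF2 span 859 and 424 kb and can hold the same genes, so their medians are not independent. ABCB10 had differences of 0.46 (G2/SCR) and 0.43 (G2/WT), both under the fold threshold. Of 16 mitochondrial iron and heme partners, 0 were called in G2/SCR by limma in either direction, and the list's median there was -0.05.

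**Figure D5:**
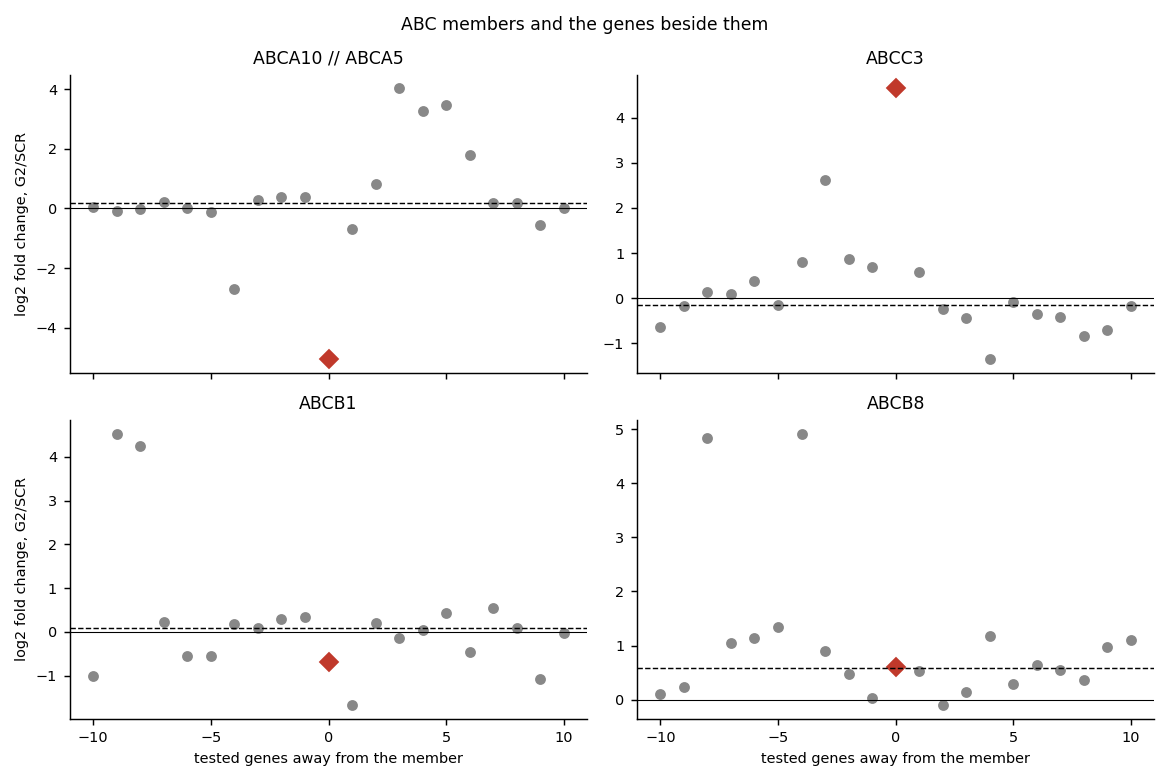
Log2 fold change in G2/SCR of 4 ABC members (red diamonds) and of the 10 tested genes on each side of them (grey points), by gene order, with the median of the neighbours dashed. The ABCA10 // ABCA5 entry and ABCC3 lie far from the medians of 0.17 and -0.16 around them, whereas ABCB8 lies at the median of 0.59.

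ABCB9, a lysosomal peptide transporter, read 142, 127 and 136 in G2, 83.7, 78.8 and 77.1 in SCR and 84.4 and 86.4 in WT. All G2 libraries were above all controls, and it was called higher against SCR (0.75 ± 0.15, limma adjusted p = 0.0016) and against WT (0.65 ± 0.17, limma adjusted p = 0.007). Its exons overlap those of OGFOD2 and ARL6IP4 on the other strand by 12.5% and 12.0%. The strand setting of the counting is not given in the sources used here, so reads of these genes cannot be told apart with certainty. In G2/SCR OGFOD2 had a log2 fold change of -0.20 and ARL6IP4 of 0.31. TAP1, the antigen peptide transporter whose protein is of subfamily B, read 168, 247 and 206 in G2, 18.4, 26.3 and 28.0 in SCR and 4.97 and 9.93 in WT. Its log2 fold changes were 3.05 in G2/SCR (limma adjusted p = 5.8e-06), 4.67 in G2/WT (limma adjusted p = 4.0e-07) and 1.62 in SCR/WT (limma adjusted p = 0.0036). Its partner TAP2 was called in no comparison (0.50 in G2/SCR), and CFTR, the chloride channel of subfamily C, was listed at 0 in all libraries.

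Of the D members, ABCD2 and ABCD3 are peroxisomal transporters of fatty acyl groups and ABCD4 is a lysosomal protein of cobalamin handling. None of these was called in any comparison. ABCD2, ABCD3 and ABCD4 had G2/SCR differences of -0.22, -0.08 and -0.13, and their 95% intervals stayed between -0.40 and 0.12. Of 16 peroxisomal partners, 1 was called in G2/SCR, ACSL3, an acyl-CoA synthetase, which rose by 0.83 (limma adjusted p = 2.0e-07). In G2/WT 0 of these partners were higher and 1 was lower, and in SCR/WT 0 were called in limma.

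The ribosome-acting members were high, and none was called in any comparison. ABCE1, the recycling factor that splits ribosomes, averaged 4775 ± 109 in G2, 4413 ± 166 in SCR (SD, n = 3 each) and 5490 ± 641 in WT (n = 2). Its G2/SCR difference of 0.11 had a 95% interval from -0.03 to 0.26. It was lower in G2/WT (-0.20, limma adjusted p = 0.042) and in SCR/WT (-0.31, limma adjusted p = 0.0066), both under the fold threshold. Its exons overlap those of OTUD4 (4.41%) and ANAPC10 (2.11%) on the other strand. ABCF1 averaged 6977 ± 110, 7742 ± 83.5 and 9650 ± 146 and so stood in the order WT, SCR, G2 with no overlap. Its differences were -0.15 in G2/SCR, -0.47 in G2/WT and -0.32 in SCR/WT, all at a limma adjusted p of 0.019 or less and all under the fold threshold. ABCF3, a ribosome-linked factor of stress and viral defence, was 0.21 lower in G2/SCR on the log2 scale (log2 fold change -0.21, 95% interval from -0.34 to -0.09). Of 14 measured translation partners, 0 were called in G2/SCR, 0 higher and 2 lower in G2/WT, and 0 higher and 1 lower in SCR/WT in limma.

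In 9 tested members all 3 G2 libraries were above all 5 control libraries, against 22.8% of all tested genes, and in 8 all were below, against 19.7%. The 9 make up 28.1% of the 32 and included ABCA3, ABCB4, ABCB8, ABCB9 and ABCC3. The 8 were the ABCA10 // ABCA5 entry, ABCB1, ABCC1, ABCC4, ABCC9, ABCF1, ABCF3 and ABCG1, or 25.0%. Both shares lie near the background. For a single member an exact two-sided permutation test over the 56 groupings of 3 against 5 libraries can give no p below 0.018. ABCC3 and the ABCA10 // ABCA5 entry reached this limit, but so did other members, among them ABCA2, ABCA3, ABCC4 and ABCF3. The limit therefore sets none of them apart.

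Defining neuroblastoma markers HAND2, GATA3 and DBH were high in every library. TH was low, at 5.63 to 26.5 in SCR and 13.9 and 19.9 in WT, and was at the floor in G2. Of 11 adrenergic markers, 0 were called higher and 9 lower in G2/SCR, against 14.3% and 10.7% of all tested genes. Their summed level ran from 107414 to 116838 in G2, from 209452 to 223880 in SCR and from 238914 to 253113 in WT. GATA3 went against the list and was 0.37 higher in G2/SCR (limma adjusted p = 1.4e-04), under the fold threshold. Of 10 mesenchymal or fibroblast markers, 9 were tested, 8 were called higher and 0 lower in G2/SCR, and their sum ran from 110963 to 113156 in G2, from 34080 to 35868 in SCR and from 27125 to 30083 in WT. Within that list FN1 was at or near 0 in all libraries and PRRX1 was read in G2 only, at 20.7 to 48.2. TWIST1 went the other way and was 0.39 lower in G2/SCR on the log2 scale (limma adjusted p = 7.3e-05), under the fold threshold. It averaged 21105 in G2, 27740 in SCR and 26687 in WT, and so made up most of the sums in SCR and WT. The ABC members were called in both directions in G2/SCR, and the part of these lists in their differences was not tested.

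Most markers of other cell types were low. Summed endothelial markers stayed between 3.72 and 80.9, with PECAM1 at 0 in all libraries. Summed hepatocyte markers ran from 98.9 to 130 in G2, from 211 to 241 in SCR and from 48.6 to 59.6 in WT, nearly all of it APOB, with ALB at 0. Summed astrocyte markers stayed between 16.9 and 81.9, epithelial ones between 118 and 196 and Schwann ones between 170 and 594, with SOX10 at 0. Immune markers summed to 666 to 738 in G2 and to 61.9 to 133 in the controls, of which nearly all was the lysosomal marker CD68, while CD3E was 0 in all libraries and PTPRC was 0 in all but 1. CD68 rose by 3.41 on the log2 scale in G2/SCR (limma adjusted p = 3.3e-09). In G2/SCR, 1 Schwann, 1 immune and 1 astrocyte marker were called higher, and 1 Schwann and 1 hepatocyte marker lower. Of all tested genes 14.3% were called higher and 10.7% lower there. In G2/WT, 2 epithelial markers and 1 each of the endothelial, immune, hepatocyte and astrocyte lists were higher, and 1 Schwann marker was lower.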

How the data were processed

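Poly-A RNA of the 3 SH-SY5Y lines was read as stranded paired libraries. The authors used STAR on hg38, took gene counts from featureCounts with FAST DB gene models and scaled these in DESeq2. The signal they deposited is a normalized count per gene and library, neither log-scaled nor per length, and the strand setting is not given in the sources used here. Dividing each library by its step gave whole counts for 100.00% of values, within 0.01 for low counts. The tolerance widened with the count, so the highest counts would pass in any case. The step of WT replicate 2 is near 1, so whole counts could not be checked there, and count models were run on G2 and SCR only. Totals ran from 59804395 to 81080747 counts. A line was at the floor when no library exceeded 9 recovered counts (about 3 read pairs, covering counting error only), and folds against it are lower bounds, with the floor averaged over the line's libraries. Folds given without a bound are ratios of line means.

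limma 3.58.1 in R 4.3.3 was fitted to log2(value + 1) of all 8 libraries, with a mean per line and a variance trend, over 18947 genes whose mean reached 10. Fold changes on this scale understate those of low genes. Genes were called at a fold of at least 1.5 and an adjusted p (Benjamini-Hochberg) no larger than 0.05. The shares of all tested genes called, given beside the members, are also the background for the lists, markers and neighbouring genes. Intervals are at 95%. The fit was tested on simulated data. On recovered counts of G2/SCR, edgeR 4.0.16 called 4850 genes and DESeq2 1.42.0 4739, against 4729 in limma. The members and the lists of partners and markers were chosen with earlier results of these data known. Every called member is named. Other genes named are PRPF40B, TAP1, TAP2, CFTR, markers, exon-sharing genes and, per list, at most 3 called in G2/SCR with the smallest p. Outside this rule, the pseudogenes of ABCC6 are named, and ATG9A, ARSG and KCNJ11 were named after their values were seen. Exon lengths and overlaps are from GENCODE 44 on hg38, where 99.9% of 24313 matched symbols overlapped the table's positions. Promoters are from RefSeq (GRCh38.p14), found for 35 of 46 symbols. Members with no entry included ABCA4, ABCA8, ABCB4, ABCB5, ABCC1, ABCC3, ABCC8, ABCC13 and ABCG1. Values of 2 tested members are not reported here, though they enter the counts and medians.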

Additional observations from a re-analysis of the deposited data

How the results depend on the processing

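Alternatives covered the pseudocount, the filter on low values, the scaling, the test, the thresholds, the replicate block and each library left out. Of 28 calls of members, 13 held in every alternative that could be run and none changed direction. The alternative of a fold of at least 2 uses the same fit and drops smaller folds by design. The G2/SCR calls of ABCB1, ABCB9 and ABCC1 were lost to that alternative alone. With a fold of at least 2, members called higher and lower numbered 1 and 5 in G2/SCR and 4 and 2 in G2/WT, and PRPF40B (-0.95 in G2/SCR) was no longer called. With a mean of at least 100, 5 were lower in G2/SCR, 3 higher in G2/WT and 3 higher in SCR/WT, since fewer members were tested (26). All genes called then numbered 3086, 3627 and 1702, and at a fold of at least 2 they numbered 2780, 2997 and 1235, against 4729, 5343 and 2612. With the same total per library, 2 were lower in G2/WT and 10 higher in SCR/WT, and the medians of all members became -0.23, 0.20 and 0.39 in G2/SCR, G2/WT and SCR/WT. The medians of subfamily A became -0.31, 0.36 and 0.65, of B 0.41, 0.64 and 0.28, of C -0.52, 0.09 and 0.76, of D -0.20, 0.17 and 0.39, and of F -0.24, -0.04 and 0.17. A pseudocount of 8 gave 0.43 for C in SCR/WT and ended the G2/WT calls of ABCB4 (0.58) and ABCG1 (-0.58). The G2/WT call of ABCC1 was lost with TMM scaling (-0.58), and the SCR/WT call of ABCC2 (0.96) with no filter, with no variance trend and with only these lines fitted.

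With each library left out, members called higher and lower ranged from 3 to 3 and from 7 to 8 (G2/SCR), from 5 to 7 and from 2 to 5 in G2/WT, and from 5 to 8 and from 0 to 0 in SCR/WT, the 2 lower in G2/WT coming without WT replicate 2. The median of all members ranged from 0.01 to 0.15 in G2/WT. That of A ran between -0.28 and -0.17 for G2/SCR and between 0.30 and 0.40 for SCR/WT, that of C from -0.27 to -0.07 in G2/WT and from 0.36 to 0.77 in SCR/WT, that of D between -0.16 and -0.07 for G2/SCR, from -0.07 to 0.03 in G2/WT and from 0.05 to 0.13 in SCR/WT, and that of F from -0.30 to -0.16 in G2/WT and from -0.16 to -0.06 in SCR/WT. Groups share replicate numbers, but libraries with the same number correlated between -0.17 and 0.15, so they share a number only. With the replicate block, 4 members were higher and 3 lower in G2/WT, and the calls of ABCB9 (0.65), ABCC1 (-0.56), ABCC6 (0.91) and ABCG4 (1.04) in G2/WT and of ABCC2 (0.85) and ABCC3 (1.18) in SCR/WT were lost. Where WT was left with 1 library, that library was taken to vary like the other lines. Depth limits ABCA1 and ABCC3 in WT and the ABCA10 // ABCA5 entry in G2, which were at the floor there, and ABCC9 in G2, which was near it. The causes of these shifts were not tested.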
